A study of Mus musculus with 4 samples.

Results

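The nuclear genome of the mouse encodes most subunits of the 5 enzyme complexes of oxidative phosphorylation, and these genes were followed in RNA-seq and MethylC-seq data of the prefrontal cortex. A gene was taken when its symbol began with Nduf followed by a, b, c, s or v, with Cox4 to Cox8, with Uqcr, with Atp5, or was Sdha, Sdhb, Sdhc or Sdhd, and when the symbol held no "-ps", the mark of a pseudogene. This rule found 91 genes, each with 1 identifier, among 46320 identifiers in the tables of both RNA libraries. By role, 36 belonged to complex I, 4 to complex II, 8 to complex III, 18 to complex IV and 15 to complex V, the ATP synthase. The other 10 are no subunits or not known as such. They are the complex I assembly factors Ndufaf1 to Ndufaf7, the gene Cox7a2l, known for a role in joining complexes III and IV, and Atp5s and Atp5sl, so the 91 genes are called oxidative phosphorylation genes and not subunits. Cox4i1, whose symbol the rule would take, was not among the genes found, so it was not analysed here. The rule used names alone and no measured value.

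All libraries came from female mice at 14 weeks of age, F1 animals of the strain label C57BL6J/Spretus, with a mutation of the noncoding RNA gene Xist on the maternal allele. No treated group or group without the mutation was part of the comparisons. With the first strain of the label read as the mother, the mutation lies on the C57 X chromosome. Xist RNA is known to silence the X chromosome that makes it, so in females with this mutation the other X, here that of Spretus, is known as the silenced one. Each assay had 2 libraries, and tissue was pooled over 2 individuals from separate litters. The labels do not tie either library to an animal, so p-values measure the spread between libraries only, which may be technical. With 1 direction of cross, an effect of strain and one of parental origin cannot be told apart.

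Oxidative phosphorylation is the last stage of respiration in the mitochondrion. Complex I takes electrons from NADH and complex II from succinate, ubiquinone carries them to complex III, cytochrome c carries them to complex IV, and complex IV hands them to oxygen. Complexes I, III and IV pump protons across the inner membrane, and complex V uses the proton gradient to make ATP. Neurons draw most of their ATP from this route. Complexes I, III, IV and V also hold subunits encoded by mitochondrial DNA, so both genomes contribute to these 4 complexes. The 13 mitochondrial subunit genes, like all 37 mitochondrial genes in the tables, were listed at 0 in every column of both libraries, so no comparison between the genomes was made.

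Reads assigned to an allele numbered 4768237 in RNA library 1 and 1291903 in library 2. Of these, 21318 (0.447%) and 6982 (0.54%) fell on the 91 genes. Levels are given in FPKM, fragments per kilobase scaled to sequencing depth, as the authors computed them for both alleles together. The FPKM ratio of library 1 to library 2 had a median of 5.62 over 8970 genes with at least 1 FPKM in each library, so the libraries' values are given side by side. The mean of both served only to pick the highest and lowest genes of a complex to name. The highest value of any gene was 156580 FPKM, of a sum of 847432, in library 1. In library 2 it was 517032, of a sum of 875902. The part of such values in the median ratio of 5.62 was not tested. The median over the neuron markers Map2, Rbfox3, Snap25 and Syt1 was 455 FPKM in library 1 and 107 in library 2, so the labelled tissue carried its markers. In bulk tissue, fewer cells of a type and less RNA per cell cannot be told apart.

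The mutation bears on the X chromosome, so the DNA around the starts of the X-linked members is shown first. The windows run from 250 bases before to 50 bases after the gene start, from RefSeq on build GRCm38.p6 (mm10), 5′ to 3′ on the strand of the gene, with each CpG, the pair of bases at which most mammalian methylation lies, in capitals. Cox7b is at chrX:106015450-106015749 on the plus strand, Ndufa1 at chrX:37191189-37191488 on the minus strand and Ndufb11 at chrX:20617570-20617869 on the minus strand.
Cox7b: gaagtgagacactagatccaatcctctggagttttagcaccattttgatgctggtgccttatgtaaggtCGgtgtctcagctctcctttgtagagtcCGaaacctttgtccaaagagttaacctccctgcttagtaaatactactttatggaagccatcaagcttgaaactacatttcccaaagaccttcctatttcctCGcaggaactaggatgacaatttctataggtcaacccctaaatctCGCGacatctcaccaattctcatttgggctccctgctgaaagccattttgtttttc
Ndufa1: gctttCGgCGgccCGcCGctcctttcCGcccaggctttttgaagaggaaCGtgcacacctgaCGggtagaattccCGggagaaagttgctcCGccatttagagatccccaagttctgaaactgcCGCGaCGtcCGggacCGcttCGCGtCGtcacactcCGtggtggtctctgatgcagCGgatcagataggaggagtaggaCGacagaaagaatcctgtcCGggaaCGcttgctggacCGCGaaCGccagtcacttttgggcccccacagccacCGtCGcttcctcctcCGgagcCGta
Ndufb11: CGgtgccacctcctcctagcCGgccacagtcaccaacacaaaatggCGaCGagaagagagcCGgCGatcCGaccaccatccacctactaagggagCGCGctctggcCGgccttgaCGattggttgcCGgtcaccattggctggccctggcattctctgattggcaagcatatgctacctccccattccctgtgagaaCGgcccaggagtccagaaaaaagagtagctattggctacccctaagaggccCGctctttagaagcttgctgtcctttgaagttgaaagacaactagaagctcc
The windows hold 5 CpGs at Cox7b, 29 at Ndufa1 and 14 at Ndufb11, against a median of 19 over the 78 windows of the 73 members in the RefSeq table and of 7 over all 32851 windows.

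No read of the X-linked members came from the Spretus allele. Cox7b, a small subunit of complex IV (X, 106015700 to 106022450), had 127 C57 and 0 Spretus reads in library 1 and 59 and 0 in library 2. Ndufb11, an accessory subunit of complex I (X, 20615326 to 20617619), was read 33 times in library 1 and 9 times in library 2, each time from C57. Ndufa1, another accessory subunit of complex I (X, 37187588 to 37191163), was read 16 and 5 times, all from C57. Over the 3 genes and both libraries, 0 of 249 reads were Spretus, which allows a share of up to 1.205%, taking 3 reads as the limit of a count of 0. Gene by gene this limit was 1.61% for Cox7b, 7.14% for Ndufb11 and 14.3% for Ndufa1, so the depth leaves most room for Ndufa1. Reads carry no molecular identifiers, and such limits and intervals cover counting error only.

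Cox7b alone of the 3 had the 10 reads per library needed for the test, edgeR's quasi-likelihood test on allele counts, with p-values adjusted by Benjamini-Hochberg over 11981 genes, and it was called toward C57 (adjusted p = 2.4e-05). Its Spretus level was at least 62-fold lower, against 3 reads over both libraries. On the X chromosome 99.2% of 397 tested genes were called toward C57, so this call is shared with nearly all of them. Without the minimum of reads, Ndufb11 and Ndufa1 were called toward C57 as well, as were 66.8% of 773 X-linked genes. Of 316 X-linked genes with at least 20 reads in each library, 50.3% had no Spretus read, and of 469 with at least 20 over both libraries, as all 3 members had, 62%. Ndufb11 overlaps Rbm10, which had 162 reads, all from C57, so reads in the overlap cannot be assigned to one of them alone, and the direction was the same in both.

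Other X-linked genes of the mitochondrion gave nearly the same picture. Of 13 such genes, 10 had no Spretus read, and 5 of their 2690 reads (0.186%) were Spretus. Pdha1, a subunit of pyruvate dehydrogenase, had 596 C57 and 1 Spretus reads in library 1 and 230 and 0 in library 2. Idh3g, a subunit of the isocitrate dehydrogenase of the TCA cycle, had 254 and 3 and then 99 and 0. Slc25a5, an ADP/ATP carrier that exports the ATP made by complex V, had 51 and 0 and then 24 and 0. The tested 9 of the 13 were all called toward C57 in the same test, against the 99.2% of X-linked genes.

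Each X-linked member had a listed region of allelic methylation near its start, and in each region the silenced Spretus allele was the methylated one. The authors' deposited table of regions gives 1 level per allele as a fraction, and its coverage and any pooling of libraries are unknown, so these levels carry no error. In the authors' deposited table, the region at Cox7b from 106015650 to 106016693 spanned the start, with a level of 0 on C57 and 0.581 on Spretus. The last 100 bases of the printed Cox7b window lie in it, with 2 of the 5 CpGs, and another CpG lies across its first listed base. In the authors' deposited table, Ndufa1 had a region from 37190573 to 37190900, 338 bp downstream of the RefSeq start, with levels of 0 and 0.627, and a second from 37192232 to 37192347, 994 bp upstream, with 0 and 0.825. In the authors' deposited table, Ndufb11 had one from 20616949 to 20617084, 535 bp downstream, with 0 and 0.648, and one from 20618445 to 20618646, 826 bp upstream, with 0 and 0.787. The upstream region of Ndufb11 lies within Rbm10, so it cannot be credited to Ndufb11 alone. At Ndufa1 and Ndufb11 the printed windows hold no part of a listed region, and levels between the regions are not known. Among 317 X-linked genes with at least 1 FPKM in each library, 68.1% had a listed region within 2 kb and 66.6% one higher on Spretus, so the 3 of 3 members were not set apart from X-linked genes by this count.

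**Figure D1:**
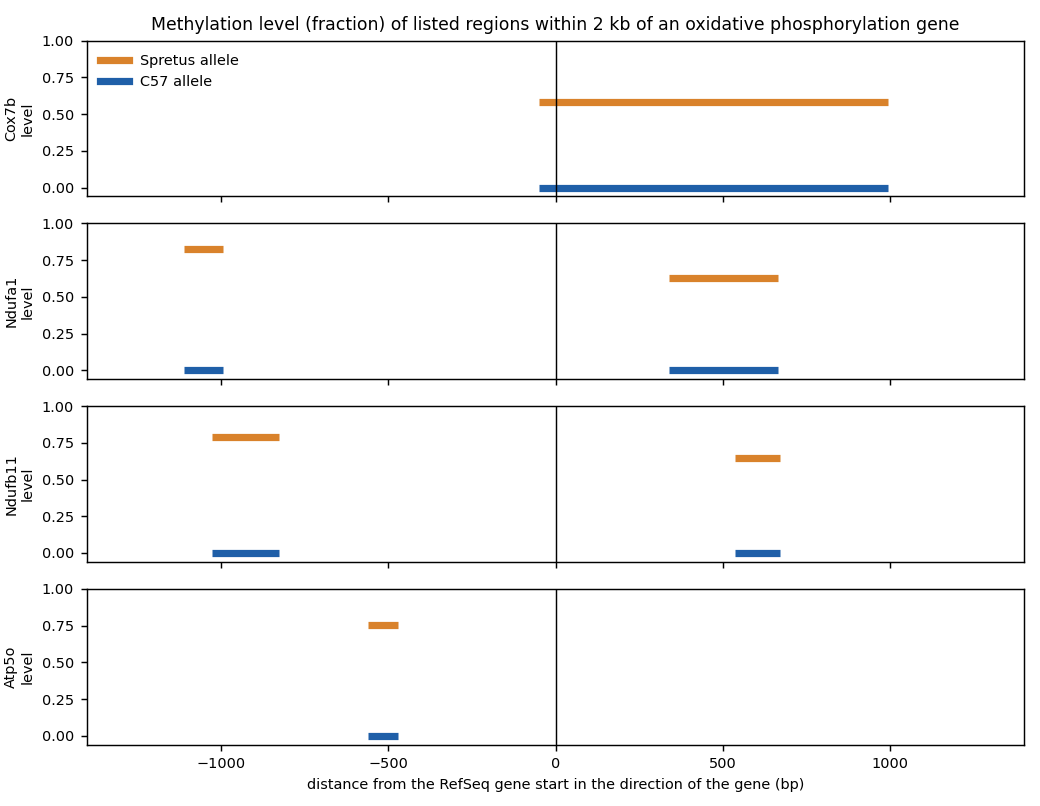
Methylation level as a fraction (vertical axis), from the authors' deposited table, of each region within 2 kb of an oxidative phosphorylation gene, against distance from the RefSeq gene start in bp, with 0 at the start and positive values inside the gene. In all 6 regions the C57 level is 0, and the Spretus level lies between 0.581 at Cox7b and 0.825 upstream of Ndufa1.

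Among autosomal members, Atp5o alone had a listed region within 2 kb, against 2.95% of 8652 autosomal genes with at least 1 FPKM in each library. Atp5o encodes the subunit of complex V named for conferring sensitivity to oligomycin. In the authors' deposited table the region, at 91932100 to 91932191 on chromosome 16, lies 470 bp upstream of the RefSeq start, with a level of 0 on C57 and 0.755 on Spretus. It also lies within the listed gene D430001F17Rik (0.135 and 0 FPKM), so it cannot be credited to Atp5o alone. A region higher on Spretus lay within 2 kb of 0.74% of the autosomal genes. Reads of Atp5o came from both alleles, with 237 C57 and 176 Spretus reads in library 1 and 78 and 67 in library 2. The Spretus share was 42.6% and 46.2%, a mean of 44.4% ± 2.54 (SD, n = 2), and the allelic test gave no call (adjusted p = 0.722 by edgeR, and 0.138 when library was added as a block). In the deposited tables the Atp5o locus runs over 91684398 to 91931687 and takes in Itsn1, Cryzl1 and other genes, so its reads cannot all be assigned to Atp5o. Its window (chr16:91931581-91931880, minus strand, RefSeq, GRCm38.p6), shown because the region lies just beyond it, holds 22 CpGs and, in capitals, a match to the motif of the respiratory factor NRF1.
Atp5o: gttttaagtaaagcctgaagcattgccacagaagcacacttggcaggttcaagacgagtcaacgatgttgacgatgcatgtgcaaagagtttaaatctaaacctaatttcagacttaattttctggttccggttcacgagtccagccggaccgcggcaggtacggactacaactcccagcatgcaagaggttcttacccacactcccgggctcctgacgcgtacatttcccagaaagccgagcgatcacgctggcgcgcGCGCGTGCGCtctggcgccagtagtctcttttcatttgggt

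Motifs of factors known for respiratory genes were searched in the windows on both strands. The 10-letter NRF1 motif was found in 20 of 78 member windows (25.6%), against 4.603% of all windows. CCGGAAG, for the ETS family with GABPA, was found in 17 (21.8%), against 8.86%, and the 11-letter YY1 motif in 4 (5.13%), against 0.633%. Overlaps between motifs were not removed. In all, 35 of the 73 members held at least 1 match, among them Atp5g2, Atp5g3, Cox6a1, Ndufb4, Sdha and Uqcrc1 for NRF1 and Atp5e, Cox8a and Uqcrh for the ETS motif. None of the X-linked windows held a match. Member windows also held more CpGs than windows at large, which was not taken into account, and a match is a description of letters and not of binding.

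Autosomal members were read from both alleles in nearly equal numbers. Among 72 with 20 or more allele-assigned reads in each library, the median Spretus share was 49.1% (48.9% in library 1 and 49.0% in library 2), with an interquartile range of 46.4 to 51.7%. The 9737 autosomal genes with that depth had a median of 48.1% and an interquartile range of 44.7 to 51.0%. Shares of 40 to 60% were found for 67 of the 72 members (93.1%) and for 88.4% of the autosomal genes. Those outside, counted after their values were seen, were Ndufa12, Ndufa6 and Atp5g1 below and Ndufb4 and Ndufv3 above. By complex the medians were 49.1% for I, 48.6% for II, 50.6% for III, 49.9% for IV, 49.0% for V and 46.4% for the assembly group. Over the reads of all autosomal members, 49.5% in library 1 and 49.1% in library 2 were Spretus, and so the autosomal and X-linked members stood apart in each library.

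**Figure D2:**
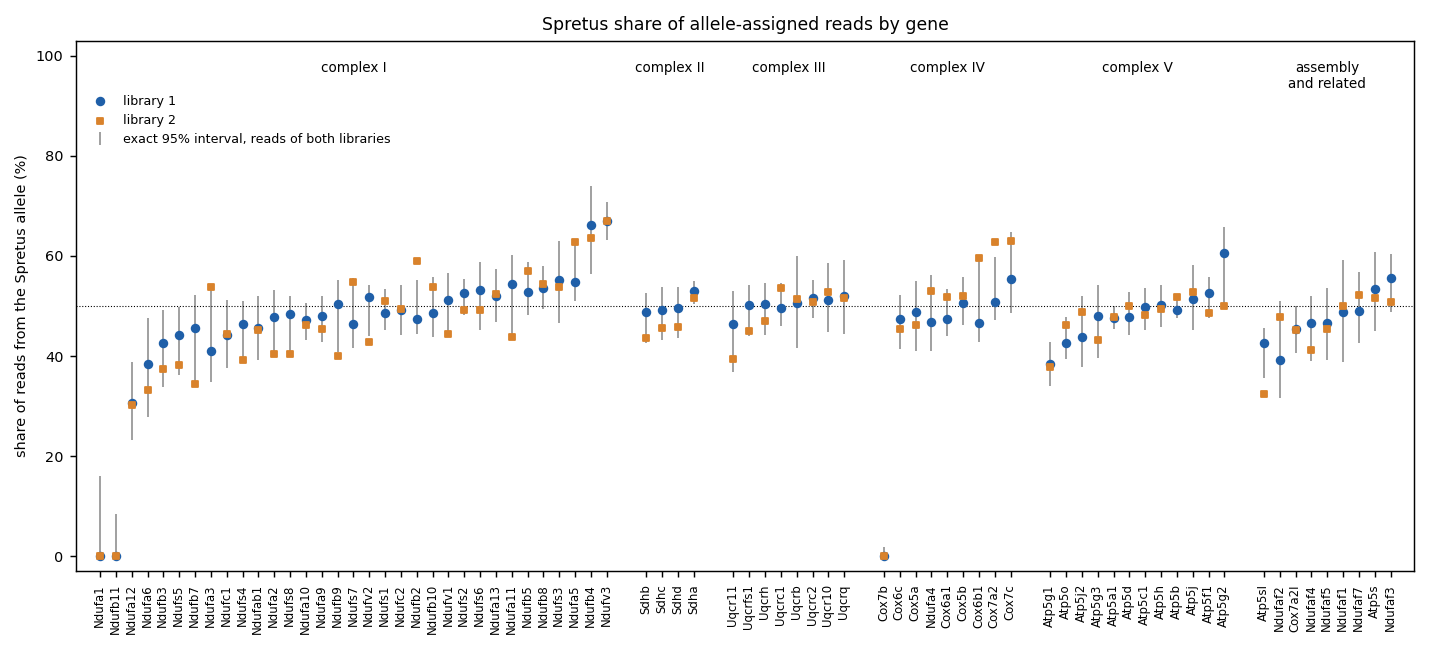
Share of allele-assigned reads from the Spretus allele (%) for the 72 autosomal members with at least 20 reads in each library and for the X-linked members, grouped by complex, with a point per library and the exact Clopper-Pearson 95% interval of the summed reads. Cox7b, Ndufa1 and Ndufb11 lie at 0, and the autosomal genes run from 30.6% at Ndufa12 to 67.1% at Ndufv3.

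In the test, 3 of 78 autosomal members were called (3.85%), against 5.43% of 11584 autosomal genes, so calls were no more common among them. Ndufv3 was called toward Spretus, as were 2.39% of autosomal genes, and Atp5e and Ndufa12 toward C57, as were 3.04%. An unadjusted p under 0.05 was found for 7 of the 78. The share over all autosomal genes was not computed for this rule, so nothing is read from that count. Both alleles of a library were read from 1 RNA sample. In the fit with allele alone, shifts of a gene common to both alleles of a library count as spread. A library block takes such shifts out, so its p-values measure the spread of the allelic ratio between libraries. The fit with library as a block called 10 of the 78 (12.8%), against 22.5% of autosomal genes. Of these, 4 were toward C57 (11.3% of autosomal genes) and 6 toward Spretus (11.1%). DESeq2 called 1 of 78 (2.2% of autosomal genes), a shared library total 3 of 78 (4.77%), no minimum of reads 4 of 85 (5.84%) and a minimum of 50 reads in each library 1 of 46 (2.59%). Ndufv3 was called in each of these fits. The log2 ratio of Spretus over C57 had a median of 0.08 over the 78 members and of 0.02 over all autosomal genes. With 1 total for both alleles of a library these became -0.04 and -0.11, so the sign of the members' median rests on the scaling. The difference between the medians was 0.06 in both fits.

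Ndufv3, an accessory subunit of the NADH-oxidising module of complex I (chromosome 17, 31520115 to 31531326), drew about 67% of its reads from Spretus. Library 1 gave 154 C57 and 314 Spretus reads and library 2 gave 57 and 116. The Spretus share was 67.1% in each (SD 0.0297, n = 2), and the summed reads had an exact 95% interval of 63.3 to 70.7%. The log2 ratio was 1.18 (SE 0.24, adjusted p = 0.00626 by edgeR), and this call also held in DESeq2 and with the block. The partners of Ndufv3 in that module, Ndufv1 and Ndufv2, the core subunits that bind NADH and an iron-sulphur cluster, stood at 47.8% ± 4.77 and 47.3% ± 6.41 (SD, n = 2). The allelic imbalance of Ndufv3 was larger than the spread between libraries, and these partners lay within theirs of equal use.

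Atp5e, the epsilon subunit in the central stalk of complex V (chromosome 2, 174461072 to 174464105), had 62 C57 and 23 Spretus reads in library 1 and 13 and 2 in library 2. Its Spretus share was 27.1% and 13.3%, or 20.2% ± 9.71 (SD, n = 2), with more C57 reads in both libraries. The log2 ratio was -1.46 (SE 0.36, adjusted p = 0.0264 by edgeR), and it became -2.52 without library 1, where only the 15 reads of library 2 remained. DESeq2 gave no call (adjusted p = 0.259). The other central stalk subunits, gamma (Atp5c1) and delta (Atp5d), stood at 49.1% ± 1.13 and 49.0% ± 1.48 (SD, n = 2).

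Ndufa12, an accessory subunit of complex I (chromosome 10, 94198955 to 94221443), had 79 C57 and 35 Spretus reads in library 1 and 23 and 10 in library 2. The shares of 30.7% and 30.3% lay close together (30.5% ± 0.282, SD, n = 2), with an exact 95% interval of 23.3 to 38.7% for the summed reads. The log2 ratio was -1.06 (SE 0.29, adjusted p = 0.0473 by edgeR), just inside the threshold. DESeq2 gave an adjusted p of 0.429, and sharing the total of a library gave 0.0504, so this call is lost under both. No other listed gene overlapped Ndufv3, Atp5e or Ndufa12.

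Members called with the library block, and not in the same fit without it, included genes of complexes I, II and V. Ndufb4, an accessory subunit of the membrane arm of complex I, was read 30 times from C57 and 59 times from Spretus in library 1, and 12 and 21 times in library 2. Its Spretus share was 65.0% ± 1.88 (SD, n = 2). Its log2 ratio was 1.06 without and 1.05 with the block (adjusted p = 0.0919 and 0.00116 by edgeR). Without a minimum of reads and with no block it was called too (log2 ratio 1.07, adjusted p = 0.0193 by edgeR), and DESeq2 gave no call (adjusted p = 0.588). Ndufa5, of the same complex, stood at 54.8% and 62.8% (adjusted p = 0.327 and 0.012), and Ndufb8 at 53.5% and 54.3% (0.365 and 0.0258). Sdha, the flavoprotein that oxidises succinate in complex II, had 661 C57 and 745 Spretus reads in library 1 and 235 and 251 in library 2. At 1892 reads its share of 52.3% ± 0.948 (SD, n = 2) was called with the block (adjusted p = 0.000209 by edgeR) and not without it (0.711). Atp5sl stood at 42.5% and 32.4% (adjusted p = 0.223 and 0.0244 by edgeR), and its log2 ratio moved from -0.50 to -0.94 without library 1.

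The c ring of complex V, which turns as protons pass, is encoded by Atp5g1, Atp5g2 and Atp5g3. Atp5g1 had 222 C57 and 139 Spretus reads in library 1 and 69 and 42 in library 2, or 38.2% ± 0.471 (SD, n = 2). Atp5g2 had 45 and 69 and then 19 and 19, or 55.3% ± 7.44 (SD, n = 2), so library 1 lay toward Spretus and library 2 at equal numbers. Atp5g3 had 76 and 70 and then 25 and 19, or 45.6% ± 3.37 (SD, n = 2). Atp5g1 was called toward C57 with the block (log2 ratio -0.55, adjusted p = 0.000396 by edgeR) or with the total shared (adjusted p = 0.0495), and not in the fit without either (adjusted p = 0.105). Atp5g2 was called toward Spretus with the block alone (adjusted p = 0.0487 by edgeR), and its log2 ratio went from 0.53 to 0.11 without library 1. Whether the shares of the 3 genes differ from each other was not tested. In FPKM, Atp5g1 supplied 49.5% of the sum of the 3 genes in library 1 and 47.4% in library 2, Atp5g3 29.6% and 32.1%, and Atp5g2 20.9% and 20.5%, so their order was the same in both libraries.

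The genes of this pathway ranked among the most abundant of the tissue. Their median was 81.7 FPKM in library 1 and 12.4 in library 2, against 17.2 and 3.04 over the 8970 genes with at least 1 FPKM in each library. Of the 91 members 82 passed that level in each library, against 8970 of all 46320 identifiers. In library 1 alone 87 members passed it and in library 2 alone 82, so library 2 set the count. Complex I genes supplied 29.6% of the members' summed FPKM in library 1 and 32.9% in library 2, complex IV 29.4% and 28.0%, complex V 25.9% and 24.7%, complex III 10.1% and 9.76%, and complex II 3.07% and 2.81%. Genes that the name rule misses, such as Usmg5 of the ATP synthase (440 and 110 FPKM), are not in these sums. The order of the complexes therefore holds for the members alone. The highest member was Atp5b, the catalytic beta subunit of the ATP synthase, at 663 and 97.5 FPKM. Its percentile among the 8970 genes was 99.3 in library 1.

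**Figure D3:**
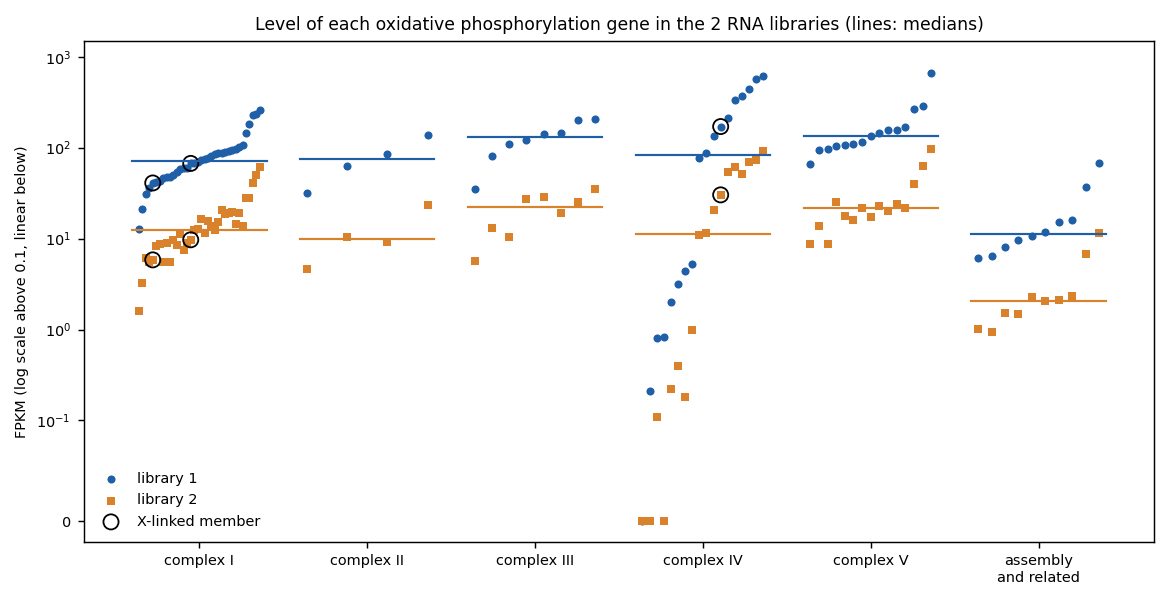
FPKM of each of the 91 genes by complex in library 1 (circles) and library 2 (squares), on an axis that is logarithmic above 0.1 and linear below, with lines at the group medians and rings around the X-linked members. Values reach 663 FPKM in library 1, complex IV alone holds genes near 0, and the X-linked genes lie among the autosomal ones.

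Complex I genes had medians of 71.6 FPKM in library 1 and 12.4 in library 2. The 7 core subunits, which carry the flavin and the iron-sulphur clusters and are conserved from bacteria, had medians of 70.2 and 12.8 FPKM in libraries 1 and 2, against 72.9 and 11.4 for the 29 accessory subunits, so their order was not the same in both libraries. The highest were the accessory genes Ndufa10 (262 and 60.6), Ndufa3 (234.5 and 50.7) and Ndufa5 (226 and 41.2). The lowest were Ndufs4 (21.0 and 3.26), whose loss is known to give a Leigh-like disease in mice, and Ndufa11 (12.6 and 1.59). Among the 36 genes, X-linked Ndufa1 ranked 21st at 67.1 FPKM in library 1 and 22nd at 9.70 in library 2. Ndufb11 ranked 32nd and 31st at 40.9 and 5.83 FPKM. Both were thus inside the range of the autosomal genes of the complex, although 1 allele alone gave reads.

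In complex II, Sdha stood highest at 137 and 23.3 FPKM. Sdhb, which carries the iron-sulphur clusters, stood at 62.7 and 10.4, and the membrane anchors Sdhc and Sdhd at 85.7 and 9.29 and at 31.7 and 4.603. In complex III the highest genes by the mean of both libraries were Uqcrh, the hinge protein, at 207 and 35.2 FPKM, Uqcr11 at 201 and 25.3 and the core protein gene Uqcrc2 at 142 and 29.0. Uqcr10 lay above Uqcrc2 in library 1, and Uqcrb above Uqcr11 in library 2. The lowest members by the mean were the other core protein gene, Uqcrc1, at 80.01 and 13.2, and Uqcrfs1, the Rieske iron-sulphur protein, at 35.5 and 5.70. In library 2 Uqcrq (10.4) lay below Uqcrc1. Among the members of complex V, Atp5h, of the peripheral stalk, followed Atp5b at 291 and 63.4 FPKM. Atp5a1, the alpha subunit that alternates with beta in the catalytic head, stood at 265 and 39.9. Usmg5, a gene of the ATP synthase outside the name rule, stood at 440 and 110 FPKM. That was above Atp5h in both libraries and above Atp5b in library 2. The lowest members of complex V by the mean were Atp5e at 97.8 and 8.82 and Atp5g2 at 66.1 and 8.74, and in library 1 Atp5g3 (93.7) lay below Atp5e. Alpha and beta are present in equal numbers in the enzyme, and the level of Atp5b was higher than that of Atp5a1 in both libraries.

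Complex IV spanned the widest range of levels, and several of its subunits have isoforms known from particular tissues. Cox5b stood at 618 and 91.1 FPKM, Cox8a at 570 and 72.6 and Cox6a1 at 443 and 69.96. Ndufa4, once counted to complex I and now to complex IV, stood at 365.5 and 50.9. X-linked Cox7b ranked seventh of 18 in both libraries, at 171 and 30.3 FPKM.

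The isoform known from most tissues was the higher one in each pair with both isoforms among the members. Cox6a1 was 84.8 times the muscle and heart isoform Cox6a2 in library 1 and 70.1 times in library 2, since Cox6a2 stood at 5.22 and 0.998 FPKM. Cox7a2 (88.1 and 11.4) was 20 and 62.2 times the muscle isoform Cox7a1 (4.41 and 0.183). The muscle isoform Cox8b stood at 0.213 FPKM in library 1 and at 0 in library 2. The testis isoform Cox6b2 stood at 3.19 and 0.396 FPKM, against 334 and 60.8 for Cox6b1. Cox7b2, also of the testis, stood at 0.822 and 0, and Cox8c was listed at 0 in both libraries. Genes known for induction by low oxygen were low, with Ndufa4l2 at 2.00 and 0.223 and Cox4i2 at 0.804 and 0.108 FPKM. Of 9 muscle markers found, 8 were under 1 FPKM in both libraries, with a summed level of 2.98 and 0.463 FPKM and none at 0 in both. The 5 testis markers were all under 1 FPKM, with sums of 0.0231 and 0.108, and Ldhc, Prm2 and Tnp1 were at 0. Cox6a2 was thus above each muscle marker in library 1, where the highest, Myh7, stood at 1.40 FPKM.

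The assembly group was lower than the subunits, with medians of 11.2 FPKM in library 1 and 2.08 in library 2. Cox7a2l led it at 68.1 and 11.5, followed by Ndufaf3 at 37.3 and 6.78 and Ndufaf5 at 16.1 and 2.32. Ndufaf6 (6.47 and 0.937) and Atp5s (6.08 and 1.00) were lowest. Assembly factors act on a complex as it is built and are not part of the finished enzyme.

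The number of allele-assigned reads, which sets how finely a share could be measured, did not always follow the level of a gene. Cox8a, at 570 FPKM, had 24 allele-assigned reads in library 1 and 0 in library 2, or 0.0421 reads per FPKM in library 1. Atp5k, a small membrane subunit of complex V at 157 FPKM, had 13 and 4 reads. Atp5s, at 6.08 FPKM, had 133 and 31 reads, or 21.9 per FPKM in library 1. A read can be assigned to an allele only where the alleles differ in sequence, and the number of such bases per gene is not known here. Of the 91 genes, 79 reached the 10 reads per library of the test, and 12 did not, Cox8a, Atp5k, Ndufa1 and Ndufb11 among them.

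Relative to all genes, the ratio of the libraries for these genes lay in opposite directions by FPKM and by allele-assigned reads. By FPKM, the ratio of library 1 to library 2 was a median of 6.25 over the 82 members above 1 FPKM, 1.11 times the median of all genes. The interquartile range of this relative ratio was 0.934 to 1.24 over these members. Over the 8970 genes with at least 1 FPKM in each library it was 0.861 to 1.16, so the members' median lay inside it. The relative ratio was 0.977 for complex I, 1.15 for II, 1.095 for III, 1.19 for IV and 1.21 for V. By allele-assigned reads the members' ratio was 0.813 times the median of 10053 genes, and 58 of 73 members lay below that median. Complex IV went from 1.19 times by FPKM to 0.634 times by reads. Whether these genes made up more or less of library 1 than of library 2 therefore cannot be stated.

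**Figure D4:**
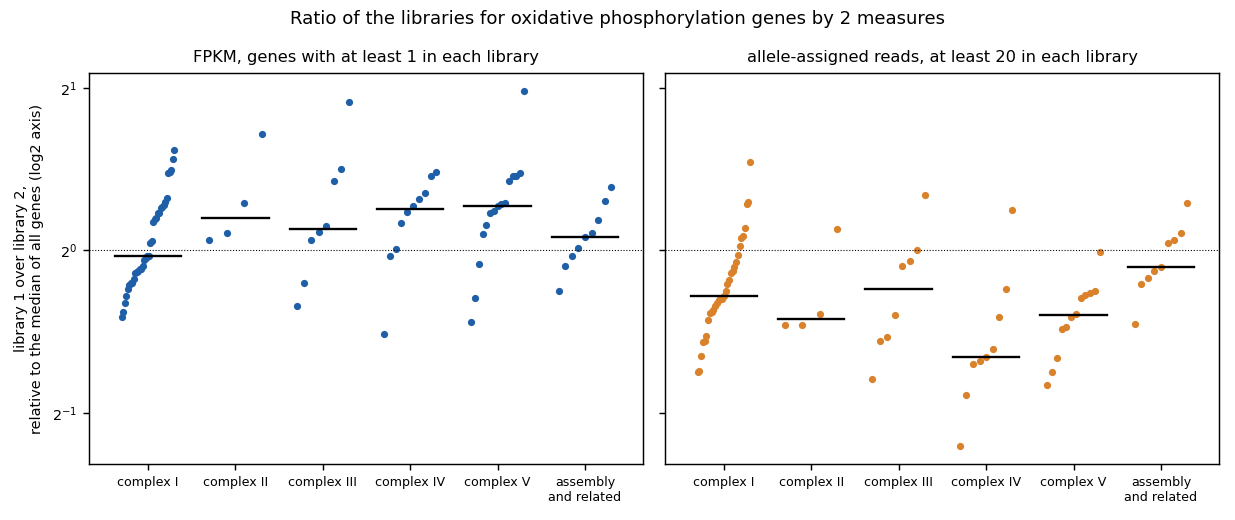
Ratio of library 1 to library 2 for each oxidative phosphorylation gene, divided by the median ratio of all genes (log2 axis), from FPKM on the left and from allele-assigned reads on the right, with bars at the group medians. Medians on the left lie at 0.977 to 1.21, and all medians on the right lie below 1, from 0.634 for complex IV to 0.931 for the assembly group.

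Among members with at least 1 FPKM in each library, the highest relative FPKM ratios were those of Atp5e at 1.97, Uqcrq, a small subunit of complex III, at 1.88 and Sdhc at 1.64. Below that level, Cox7a1 had 4.28, from 0.183 FPKM in library 2. By reads Atp5e, Uqcrq and Sdhc had relative ratios of 1.42, 1.26 and 1.097, so all 3 were relatively higher in library 1 by both measures. The lowest by FPKM were Cox6c, a complex IV subunit, at 0.701, Atp5f1, the b subunit of the peripheral stalk, at 0.736 and Ndufa12 at 0.754, with 0.634, 0.840 and 0.867 by reads. Markers of cell types also differed between the libraries by FPKM. Their allele-assigned reads were not compared in this way. For the members, FPKM and reads lay in opposite directions, so the marker ratios hold for FPKM alone. The summed level of the 5 oligodendrocyte markers was 639 and 65.8 FPKM, a relative ratio of 1.73, that of the 5 blood markers 995 and 77.9 (2.27), that of the 5 astrocyte markers 249 and 36.15 (1.23), that of the 5 microglia markers 63.1 and 9.63 (1.17) and that of the 4 neuron markers 1987 and 452 (0.782). Sums gave relative ratios of 0.981 for interneurons, 1.02 for endothelium and pericytes and 1.05 for excitatory neurons. Of the latter markers Slc17a7 alone lay above 1 (1.31), and their median was 0.945. No marker of these lists was at 0 in both libraries. Their part in the ratios of the oxidative phosphorylation genes was not tested.

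Other genes of respiration were set beside the members. Cytochrome c1 (Cyc1), cytochrome c (Cycs) and assembly factors of complexes III and IV gave 26 tested genes with 0 calls in edgeR, and 5 calls with the library block, 3 toward C57 and 2 toward Spretus. Cycs was one of the latter, with 78 C57 and 122 Spretus reads in library 1 and 29 and 48 in library 2 (adjusted p = 0.11, 0.000116 with the block). Among 10 assembly genes of complexes I and II, Sdhaf3 and Tmem126b were called toward C57. Sdhaf3, known for maturing the iron-sulphur subunit of complex II, had 108 C57 and 26 Spretus reads in library 1 and 22 and 10 in library 2 (log2 ratio -1.65, adjusted p = 0.0045 by edgeR). Tmem126b, an assembly factor of complex I, had 104 and 47 and then 28 and 15 (log2 ratio -0.94, adjusted p = 0.0496 by edgeR).

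The 5 tested genes of the ATP synthase outside the rule, Usmg5 and Atpif1 among them, had 0 calls, and Atpaf1 was called toward Spretus with the block. Of 18 genes of the TCA cycle and pyruvate dehydrogenase, the X-linked Pdha1 and Idh3g alone were called, both toward C57, and the block added Pdhb. Of 9 tested regulators of mitochondrial biogenesis, 0 were called, and with the block Polrmt, Ppargc1b and Tfb2m were called toward Spretus. Set against the 5.43% of autosomal genes called, and the 22.5% with the block, these small lists give no more than their counts.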

How the data were processed

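RNA and DNA came from pooled prefrontal cortex, and RNA libraries were depleted of ribosomal RNA and made with a kit that marks strand, per the labels' protocols. Build mm10 and the tools HTSeq 0.6.0, TopHat2 2.0.9, bedtools 2.2.4 and Cufflinks 2.1.1 are named without roles in the submitters' processing notes. How reads were assigned to alleles and whether counting used strand is not given in the sources used here. Overlapping genes are therefore uncertain. The authors deposited, per the file headers, raw counts per allele and 1 FPKM value per gene and library. They also deposited methylation levels per allele as a fraction, for 1600 regions with levels. Depth behind these is unknown. Gene starts were counted from 1 after adding 1, which matched RefSeq for 38.6% of genes against 2.31% as listed. Identifiers at several loci (49) were used once.

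Allelic counts were tested with edgeR 4.0.16 in R 4.3.3 (glmQLFit and glmQLFTest, TMM, allele as the only term) for genes with at least 10 reads in each library, with Benjamini-Hochberg adjustment and a threshold of 0.05. SE is the absolute log2 ratio over the root of F. DESeq2 1.42.0, a library block, a shared library total and other filters were alternatives. The script was tested on simulated data whose columns were drawn independently, so that test did not cover paired columns. The allele columns of a library share its RNA and so are paired. Deviations of the C57 and Spretus columns had a correlation of 0.597 over 7565 autosomal genes with at least 200 reads. Intervals are exact Clopper-Pearson at 95%. Named genes were, by rule, X-linked or called members, the 6 largest called with the block alone, the 3 highest and 2 lowest per complex by mean FPKM, isoform groups, the 3 highest and 3 lowest library ratios, and members within 2 kb of a region. In the other lists, genes were named where X-linked or called. Members and lists were chosen with earlier results of these data known.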

Additional observations from a re-analysis of the deposited data

How the results depend on the processing

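Adding library as a block gave 5 members called toward C57 and 6 toward Spretus, or 10 autosomal members, against 3, 1 and 3 without it. DESeq2 called 1 toward C57 and 1 autosomal member, and so did a minimum of 50 reads in each library. Without a minimum of reads, 5 were called toward C57, 2 toward Spretus and 3 of the X-linked members. The median log2 ratio of autosomal members was -0.044 with the total of a library shared, and 0.036 to 0.066 when either library was left out. The median Spretus share was 49.4% with at least 50 reads, 49.2% with no minimum and 48.9 to 49.0% in single libraries. The relative library ratio of 1.11 became 1.26 with FPKM plus 1 and 0.813 with reads, and the cause was not tested. No log2 ratio of a called member changed sign. With 1 library left out, no residual degrees of freedom remain, so no calls were made. Library 2, with fewer reads, limits the shares, with 0 reads for Cox8a, 5 for Ndufa1, 9 for Ndufb11 and 15 for Atp5e.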
